A study of Mus musculus with 8 samples.

Results

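In HT22 cells, an immortalised mouse hippocampal neuronal line, 539 of the 5984 KLF13 peaks that lay over an annotated transcription start site (TSS) were wide. They were selected as the rows of the deposited peak list with a distance to the TSS of 0 and a width of 1300 bp or more. They made up 9.01% of the peaks over a TSS (exact 95% binomial interval 8.29 to 9.76), in a list of 9506 peaks. Both groups of libraries came from cells that stably expressed the biotin ligase BirA and were transfected with the pTO-Klf13Bio plasmid, which gives biotinylated KLF13. Chromatin was taken 24 h after transfection for 4 chromatin streptavidin precipitation (ChSP) libraries and 4 input libraries. No pulldown without tagged KLF13 is among them, so signal from KLF13 and signal from other chromatin held by streptavidin cannot be told apart. The KLF13 that was pulled down came from the plasmid. The list gives 1 value per peak over all 8 libraries, so read depth and the spread between replicates are unknown and no difference below carries a replicate error. The measurements are of chromatin, not RNA, so the markers of the cell line could not be checked.

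KLF13 belongs to the KLF and Sp family, zinc-finger transcription factors that bind GC boxes and CACCC boxes. It can recruit the SIN3 and histone deacetylase corepressor complex, and family members act in neurons on differentiation, hormone responses and axon growth. Promoters rich in GC boxes are mostly CpG islands, stretches where the CpG dinucleotide has not been lost and where genes of broad expression and many developmental regulators start.

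The sequences just before the annotated start of the genes with the widest peaks and the highest fold are printed to show what kind of sequence these peaks lay on. The fold is the authors' ratio of ChSP over input, read as linear from a column of the list that has no descriptive name. Each line holds the 150 bases before the RefSeq start nearest to the annotated TSS, 5′ to 3′ on the strand of the gene, from the RefSeq promoter table on GRCm38.p6. Capitals mark GGGCGG (the GC box core), CACCC (the CACCC box core) or CACGCCC (a longer KLF-type element), each on either strand. The first 4 genes had the widest peaks that matched the table, and the next 3 the highest fold among those in the table (Pknox1 and Rest were passed over). The last pair are narrow peaks of 200 and 300 bp shown for contrast. They were picked for a fold above the median of other peaks over a TSS and do not stand for narrow peaks.
Arid1b, chr17:4994924-4995073, plus strand: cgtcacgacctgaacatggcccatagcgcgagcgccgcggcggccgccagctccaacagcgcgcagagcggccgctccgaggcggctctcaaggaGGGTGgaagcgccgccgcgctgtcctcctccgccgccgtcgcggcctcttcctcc
Yy1, chr12:108793147-108793296, plus strand: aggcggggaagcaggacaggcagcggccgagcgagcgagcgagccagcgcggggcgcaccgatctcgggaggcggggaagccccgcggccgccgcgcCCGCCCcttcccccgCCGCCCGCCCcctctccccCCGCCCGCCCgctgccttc
Nol4l, chr2:153529972-153530121, minus strand: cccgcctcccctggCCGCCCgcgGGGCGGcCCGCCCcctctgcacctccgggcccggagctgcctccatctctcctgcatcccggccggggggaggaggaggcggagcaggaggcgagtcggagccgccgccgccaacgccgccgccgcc
Arid1a, chr4:133753986-133754135, minus strand: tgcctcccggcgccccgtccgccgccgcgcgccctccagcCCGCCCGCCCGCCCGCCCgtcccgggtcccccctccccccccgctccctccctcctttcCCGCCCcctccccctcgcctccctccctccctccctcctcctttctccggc
Zfp217, chr2:170131221-170131370, minus strand: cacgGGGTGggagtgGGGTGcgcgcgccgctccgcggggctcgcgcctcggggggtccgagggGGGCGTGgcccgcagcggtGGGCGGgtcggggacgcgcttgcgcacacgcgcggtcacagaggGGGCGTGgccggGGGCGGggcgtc
Bptf, chr11:107132148-107132297, minus strand: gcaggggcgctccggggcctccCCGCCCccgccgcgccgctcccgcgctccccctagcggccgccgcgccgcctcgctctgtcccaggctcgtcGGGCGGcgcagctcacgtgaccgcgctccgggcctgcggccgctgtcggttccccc
Acvr2a, chr2:48813959-48814108, plus strand: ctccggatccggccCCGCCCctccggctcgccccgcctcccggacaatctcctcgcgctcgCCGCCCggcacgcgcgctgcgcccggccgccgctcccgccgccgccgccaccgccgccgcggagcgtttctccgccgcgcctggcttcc
Acot1, chr12:84009352-84009501, plus strand: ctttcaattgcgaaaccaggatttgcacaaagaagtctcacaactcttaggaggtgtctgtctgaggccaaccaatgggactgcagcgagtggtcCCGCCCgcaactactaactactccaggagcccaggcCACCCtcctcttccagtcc
Taf9b, chrX:106221159-106221308, minus strand: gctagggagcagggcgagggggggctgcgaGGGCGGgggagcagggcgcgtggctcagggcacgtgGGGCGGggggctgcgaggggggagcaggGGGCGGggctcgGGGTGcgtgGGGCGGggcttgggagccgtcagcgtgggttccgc

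These windows were GC-rich in 8 of the 9 genes. GC content was 74.7% before Arid1b, between 80.7% and 83.3% before Yy1, Nol4l, Arid1a, Zfp217, Bptf, Acvr2a and Taf9b, and 54.7% before Acot1. The GC box core occurred 5 times in the printed bases of Yy1 and of Arid1a, 3 times in Nol4l and 2 times each in Zfp217, Bptf and Acvr2a, overlapping matches included. It did not occur in those of Arid1b, which held 1 CACCC box core. The Arid1b bases also hold an ATG with no stop codon in its frame up to the start used. They may therefore be coding sequence and not promoter. Zfp217, with the highest fold among wide peaks, held 2 CACCC box cores and 2 of the longer element. The bases printed for the narrow peaks did not lack these letters, since Taf9b had 4 GC box cores and Acot1 had 1. The peak over Acot1 reached only 1 bp upstream of its TSS, so nearly all of its printed bases lay outside the peak. Its GC content and matches therefore do not describe sequence under that peak.

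Over all wide peaks, 419 of 539 (77.7%) had a gene in the RefSeq promoter table, and 4311 of 5445 other peaks over a TSS (79.2%). Both are under 80%, so no comparison of promoter sequence was made between wide and other peaks. In windows of 300 bases around the start, 250 before and 50 after, GGGCGG occurred on either strand in 363 of the 419 (86.6%), against 35.7% of all 32851 windows in the table. CACCC occurred in 294 (70.2%, against 57.5% of all windows) and CACGCCC in 72 (17.2%, against 8.44%). CCAAT, the CCAAT box, occurred in 116 (27.7%, against 37.4%), and TATAAA, the core of the TATA box, in 16 (3.82%, against 13.6%). The median ratio of observed to expected CpG was 0.921 in the 419 windows and 0.384 in all windows, and median GC content was 73.0% and 52.7%. The motif shares were not adjusted for this difference in GC content. Windows were matched by gene, and the RefSeq start did not have to lie under the peak. Where it did, the wide peaks had a median CpG ratio of 0.928 and a median GC content of 73.7%. The table as a whole includes genes with no peak, so these values do not set wide peaks apart from other peaks over a TSS. A match describes letters, not a bound site.

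The 10 widest peaks lay on genes of differing function. The peak over Arid1b, a subunit of the SWI/SNF (BAF) nucleosome remodelling complex, was the widest at 3100 bp (chr17:4993901-4997000) with a fold of 34.2. It ran from 1173 bp upstream to 1926 bp downstream of the annotated TSS. Its paralogue Arid1a had a peak of 2600 bp and a fold of 41.6 (chr4:133752201-133754800). Yy1 and Nol4l shared the second width, 2700 bp. Yy1, a zinc-finger factor that both activates and represses, had a fold of 46.0, and Nol4l, a nucleolar protein 4-like gene, 36.5. Peaks of 2500 bp lay over 4 genes, with folds of 29.8 at Tsc22d2 (a TSC22 domain protein), 40.4 at Cpeb2, 30.1 at L3mbtl3 and 23.7 at Pou3f1. Cpeb2 controls translation through the poly(A) tail, L3mbtl3 reads methylated lysine, and Pou3f1 is a POU-domain factor of neural and glial development. Dnmt3a, a de novo DNA methyltransferase, and Kcnc4, a voltage-gated potassium channel, had peaks of 2400 bp with folds of 40.1 and 23.5.

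**Figure D1:**
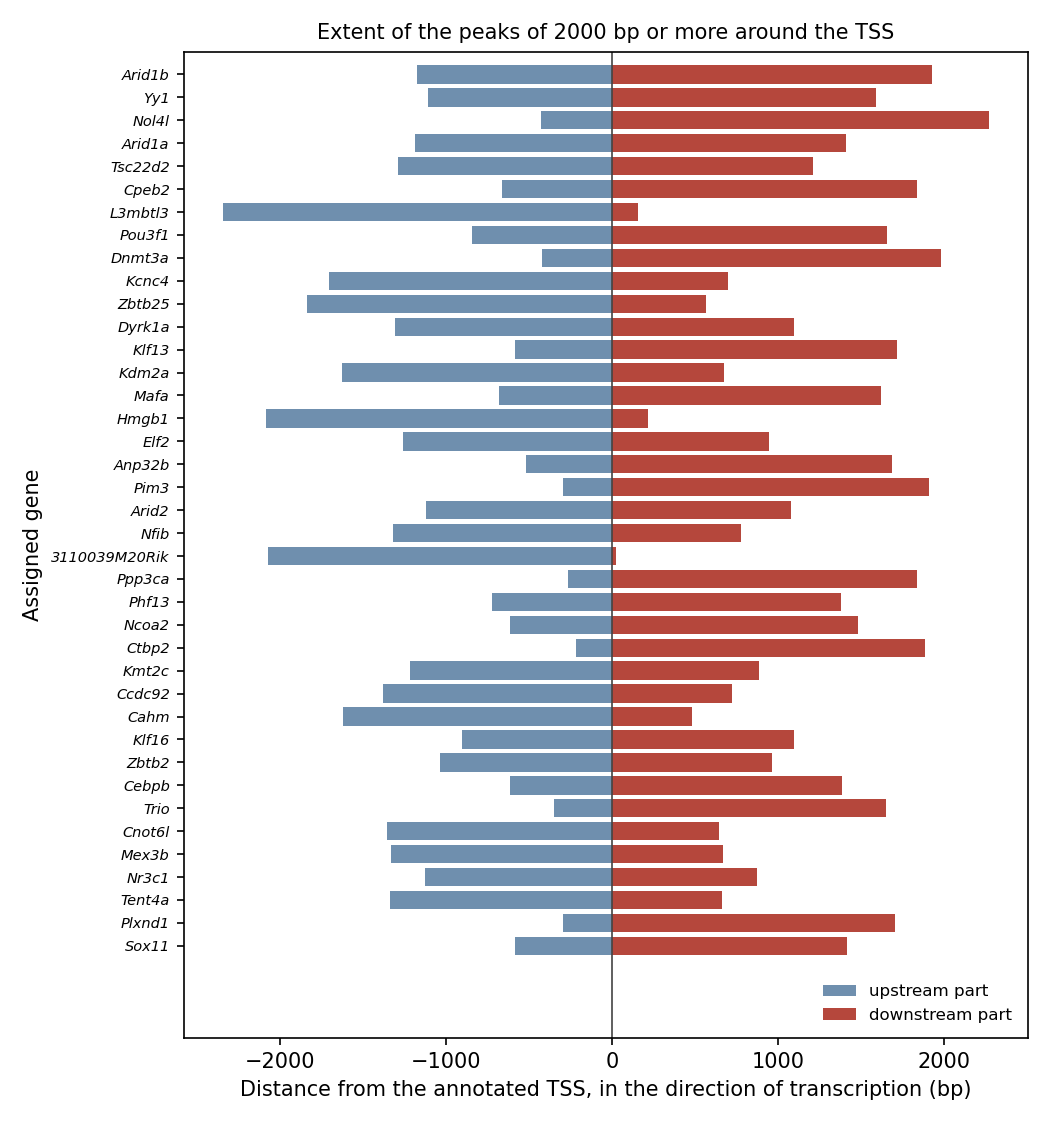
Horizontal bars show, for each of the 39 peaks of 2000 bp or more, how many bp lay upstream (blue) and downstream (red) of the annotated TSS of the assigned gene, widest at the top. Arid1b reached 1926 bp downstream, while the peak over L3mbtl3 lay almost wholly upstream, with 2344 bp before the TSS and 155 bp after it.

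Most wide peaks reached further into the gene than before it. The median wide peak had 522 bp upstream of the TSS (quartiles 358 and 800) and 950 bp downstream (quartiles 721 and 1120). Other peaks over a TSS had medians of 267 and 433 bp. The downstream part was the longer one in 395 wide peaks (73.3%) and in 3987 other peaks (73.2%). The upstream share of the peak had a median of 34.4% in wide peaks (exact 95% interval of the median 32.7 to 37.9) and 37.8% in others (37.2 to 38.5). Peaks of 1300 to 1400 bp had medians of 454 bp upstream and 897 bp downstream, those of 1500 to 1900 bp 582 and 1038 bp, and those of 2000 bp or more 1121 and 1211 bp, nearly symmetric. Individual peaks departed from this. The peak over Nol4l had 429 bp upstream and 2270 bp downstream, and that over Hmgb1, a DNA-bending chromatin protein, had 2084 bp upstream and 215 bp downstream.

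Width set the selection, and fold and p come from the same peak calls, so both are given as a description. Wide peaks had a median fold of 32.1 (quartiles 25.1 and 40.5, range 5.70 to 80.7). The 5445 other peaks over a TSS had a median of 23.4 (quartiles 17.5 and 31.3, range 3.16 to 87.6), and 434 wide peaks (80.5%) lay above that median. Fold was higher with width only up to about 1100 bp. Its median was 13.6 in peaks of 200 to 400 bp, 21.3 at 500 to 700 bp, 28.0 at 800 to 1000 bp and 32.1 at 1100 to 1200 bp. It was then 31.2 at 1300 to 1400 bp, 32.1 at 1500 to 1900 bp and 33.6 at 2000 bp or more. At the edge of the selection, the 155 peaks of 1300 bp had a median fold of 33.1 and the 250 peaks of 1200 bp one of 33.3. The authors' p was below the median p of the whole list for 505 wide peaks (93.7%) and for 3427 other peaks over a TSS (62.9%).

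**Figure D2:**
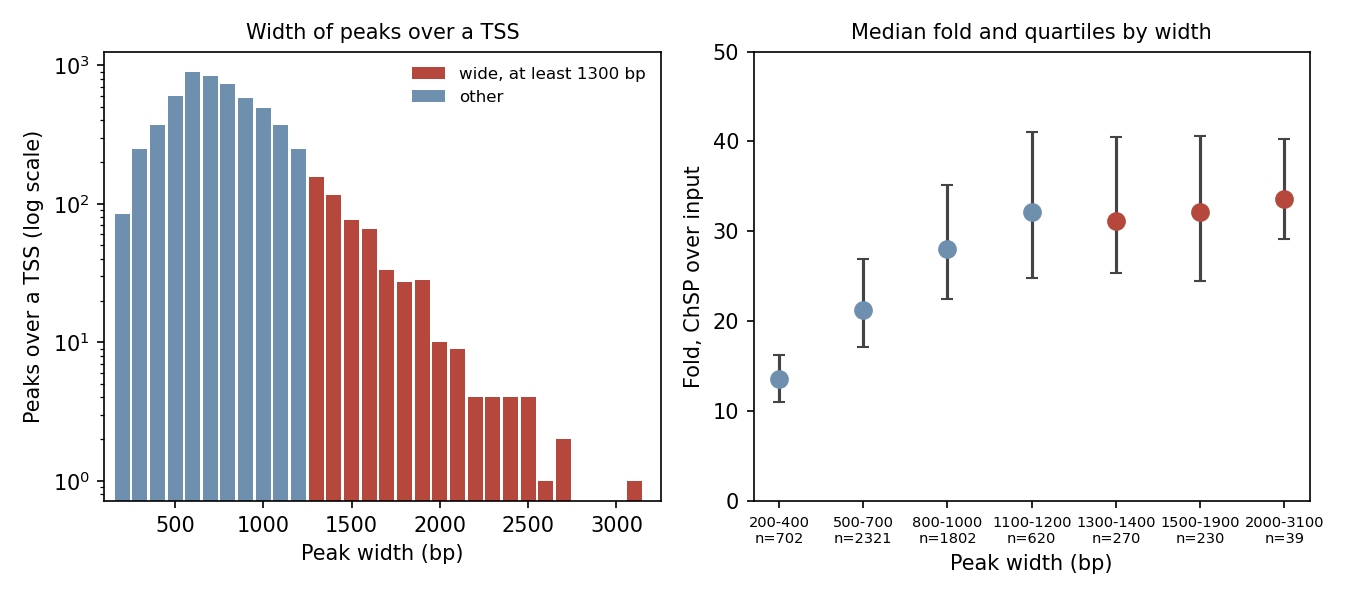
Left, the number of peaks over a TSS at each width (log scale), wide peaks in red. Right, median fold with quartiles as bars in 7 width classes, n below each, which is 13.6 in the narrowest class, 32.1 at 1100 to 1200 bp and between 31.2 and 33.6 in the wide classes.

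The highest folds among wide peaks were not at the widest ones. Zfp217, a zinc-finger protein of corepressor complexes, had 80.7 over 1300 bp (chr2:170130401-170131700). Bptf, the largest subunit of the NURF remodelling complex, had 73.3 over 1300 bp (chr11:107131301-107132600). Pknox1, a TALE homeobox partner of PBX factors, had 68.3 over 1600 bp. Rest, the repressor that keeps neuronal genes silent outside neurons, had 65.2 over 1700 bp (chr5:77265101-77266800). The rest of the 10 highest were Acvr2a (activin receptor, 63.3), Kcmf1 (a ubiquitin ligase, 62.7), Lonrf1 (a RING finger protein, 62.1), Sbf2 (a myotubularin-family protein, 61.4), Asf1a (a histone chaperone, 61.1) and Zbtb2 (a BTB zinc-finger factor, 60.7). Of these, only Zbtb2 reached 2000 bp. Among peaks over a TSS that were not wide, the highest folds were 87.6 at Zfp516 (1000 bp), 84.2 at Smurf2 (1200 bp) and 77.9 at Slc4a7 (1100 bp). The narrowest peaks with a fold above the median of the other peaks were Acot1 (26.9) and Slc12a7 (24.3) over 200 bp and Taf9b (38.8) over 300 bp. They were picked for fold and do not stand for their width class, where the median was 13.6.

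**Figure D3:**
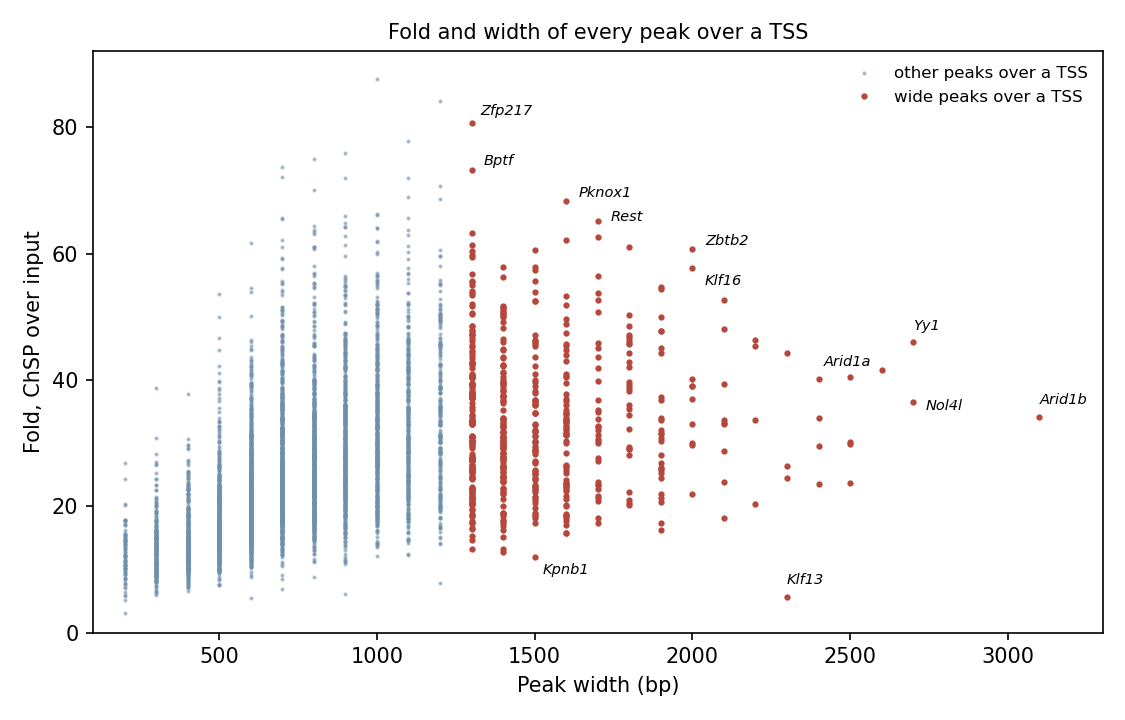
Each point is 1 peak over a TSS, with width in bp on the x axis and fold of ChSP over input on the y axis. Wide peaks are red, and Klf13 stands below the others of its width at a fold of 5.70.

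Klf13 itself had the lowest fold of all wide peaks. Its peak of 2300 bp (chr7:63937201-63939500) had a fold of 5.70 with the authors' p of 6.07e-36. Reads from the Klf13 plasmid and from the Klf13 gene cannot be told apart in the list. The next lowest were 11.9 at Kpnb1 (importin beta, 1500 bp), 12.7 at Exoc8 (an exocyst subunit, 1400 bp), 13.2 at Mir6991 (a microRNA, 1400 bp) and 13.3 at Sowahb (an ankyrin repeat protein, 1300 bp).

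Chromosome X held 3 of the wide peaks among 97 peaks over a TSS (3.09%, exact interval 0.642 to 8.77), the lowest share of any chromosome. The highest was 42 of 292 on chromosome 3 (14.4%, 10.6 to 18.9). The 3 genes on X lay near one another. They were Nhs (fold 15.8, 1600 bp), Reps2 (an endocytosis protein, fold 15.2, 1400 bp) and Rbbp7 (a histone-binding subunit of several chromatin complexes, fold 17.4, 1900 bp, with the smallest p of the list, 1.79e-82). The stretch X:162158801-163990100 that holds them contained 60 of the 243 peaks on X, and the 54 of these that were not over a TSS had a median fold of 4.45 and a median width of 300 bp. The part of this cluster in the width of the 3 peaks was not tested.

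Genes were grouped by 24 lists, which together had 486 peaks over a TSS, 88 of them wide. Of the lists, 18 had a wide share above the 9.01% of all peaks over a TSS and 9 had 20% or more. The share over the 486 listed peaks was itself above 9.01%, so a share above 9.01% does not single out a list. The exact interval lay above 9.01% for 6 lists and included it for the other 18. Among the 6 were the KLF and Sp list, which counts Klf13 itself, and the Polycomb list, which counts Rbbp7 on X. The lists were chosen with earlier results of these data known. The intervals below cover counting error only, and the lists were not tested.

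Chromatin regulators supplied many of the wide peaks in the lists. In the list of chromatin remodellers, 7 of 21 peaks were wide (33.3%, exact interval 14.6 to 57.0), with a median fold of 33.6 over all 21. Arid2, of the PBAF complex, had 2200 bp and a fold of 33.6. Chd1 and Chd6, chromodomain helicases, had folds of 60.6 and 37.9 over 1500 bp, and Baz1a, of the ACF complex, 31.9 over 1500 bp. With Arid1b and Arid1a, the list's ARID-domain genes of SWI/SNF were all wide. Histone methylation enzymes had 8 wide peaks of 28 (28.6%, 13.2 to 48.7). These were the demethylase genes Kdm2a (2300 bp, fold 26.4), Kdm7a (1900 bp, 34.0), Kdm5b (1500 bp, 21.4) and Jmjd1c (1300 bp, 25.5) and the methyltransferase genes Kmt2c (2100 bp, 33.1), Nsd1 (1700 bp, 23.4), Nsd2 (1700 bp, 36.9) and Ash1l (1300 bp, 24.7). Bromodomain and elongation factors had 5 of 17 (29.4%, 10.3 to 56.0), the widest over Cdk13, a kinase of RNA polymerase II (1800 bp, 38.2), Med13l, of the Mediator kinase module (1600 bp, 43.0), and Brd1, a histone acetyl reader (1400 bp, 33.8).

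Genes of repressive complexes also had wide peaks. Polycomb group genes had 7 wide peaks of 32 (21.9%, 9.28 to 40.0). Of the PRC1 complex these included Bmi1 (1900 bp, fold 44.2), Rybp (1600 bp, 51.9), Kdm2b (1400 bp, 50.7) and Rnf2 (1300 bp, 37.2), and with PRC2 Epop (1800 bp, 20.5) and Rbbp7. The list of SIN3, HDAC and NCoR corepressors, the class of complexes that KLF13 can recruit, had 4 of 18 (22.2%, 6.41 to 47.6). They were Tbl1xr1 of the NCoR complex (1800 bp, 39.2), Ing1 of the SIN3 complex (1700 bp, 52.7), Hdac7 (1400 bp, 36.8) and the deacetylase gene Sirt1 (1400 bp, 31.7).

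Families of transcription factors had wide shares from 0% to 33.3%. The KLF and Sp list, the family of KLF13 itself, had 5 wide peaks of 15 (33.3%, 11.8 to 61.6). Besides Klf13, these were Klf16 (2000 bp, fold 57.7), Klf3 (1800 bp, 39.6), Klf4 (1300 bp, 45.2) and Sp4 (1300 bp, 30.9). Homeobox, SOX and forkhead developmental factors had 8 of 30 (26.7%, 12.3 to 45.9), among them Sox11, a factor of immature neurons (2000 bp, 22.0), Sox12 (1600 bp, 48.9), Foxn2 (1600 bp, 25.7) and Hoxd8 (1500 bp, 53.9). ZBTB factors had 6 of 29 (20.7%, 7.99 to 39.7), led by Zbtb25 (2400 bp, 29.5), Zbtb2 and Zbtb10 (1900 bp, 20.7). Circadian clock genes had 3 of 17 (17.6%, 3.80 to 43.4), namely Clock (1700 bp, 30.3), the repressor Nr1d2 (1400 bp, 31.1) and Tef (1300 bp, 20.4). Immediate early genes had 1 of 11 (9.09%, 0.230 to 41.3), Srf (1300 bp, 29.8), and the MYC and MAX network had 0 of 8 (upper limit 36.9%).

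Wide shares in the lists of signalling genes ran from 5.56% to 20.0%. TGF-beta and BMP signalling had 4 of 20 (20.0%, 5.73 to 43.7) and a median fold of 39.3 over all 20. The receptor was Acvr2a, and the others were the effector Smad2 (1500 bp, 38.3), the ligase Smurf1 (1500 bp, 45.7) and the inhibitor Skil (1900 bp, 49.9). In cAMP signalling 5 of 26 were wide (19.2%, 6.55 to 39.4), the widest over the phosphodiesterase Pde10a (1600 bp, 26.4), the coactivator Crebbp (1500 bp, 36.1) and the cyclase Adcy5 (1400 bp, 16.8). Cullins, RING ligases and deubiquitinases had 5 of 27 (18.5%, 6.30 to 38.1), led by Siah2 (1700 bp, 32.1), Trim8 (1600 bp, 31.3) and Cul3 (1400 bp, 30.4). The PI3K, AKT and mTOR list had 3 of 17 (17.6%, 3.80 to 43.4), namely the receptor Igf1r (1800 bp, 48.6), its adaptor Irs2 (1900 bp, 26.1) and the mTORC2 subunit Rictor (1300 bp, 59.5). Wnt signalling had 2 of 25 (exact interval 0.984% to 26.0%), both feedback inhibitors, Axin2 (1600 bp, 23.7) and Znrf3 (1400 bp, 42.4). MAP kinase and DUSP genes had 2 of 24 (8.33%, 1.03 to 27.0), the kinase genes Map3k1 (1900 bp, 31.5) and Map3k5 (1600 bp, 18.5). The JAK-STAT and SOCS list had 1 of 18 (5.56%, 0.141 to 27.3), the inhibitor Socs1 (1600 bp, 17.7).

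The lists of neuronal, cell cycle and housekeeping genes had wide shares of 17.4% or less. Axon growth and guidance had 4 of 23 (17.4%, 4.95 to 38.8), among them the semaphorin receptors Plxnd1 (2000 bp, 30.0) and Plxna1 (1500 bp, 57.4) and the guidance cue Ntn1 (1600 bp, 18.6). Synapse and ion channel genes had 3 of 22 (13.6%, 2.91 to 34.9), the calcium channel gene Cacna1c (1800 bp, 29.4) and the synaptic adhesion genes Nrxn2 (1700 bp, 21.7) and Nlgn2 (1300 bp, 25.9). Splicing and RNA-binding genes had 3 of 24 (12.5%, 2.66 to 32.4), Hnrnpu (1900 bp, 32.1), Hnrnpd (1400 bp, 29.7) and Srsf2 (1400 bp, 26.5). The cell cycle list had 2 of 17 (11.8%, 1.46 to 36.4), both E-type cyclins, Ccne2 (1600 bp, 32.9) and Ccne1 (1300 bp, 43.4). None of 12 cytosolic ribosomal protein peaks (exact upper limit 26.5%) and none of 5 oxidative phosphorylation peaks (upper limit 52.2%) was wide. These last lists also had narrow peaks as a whole, with median widths of 500 and 600 bp against 700 bp over all peaks over a TSS.

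**Figure D4:**
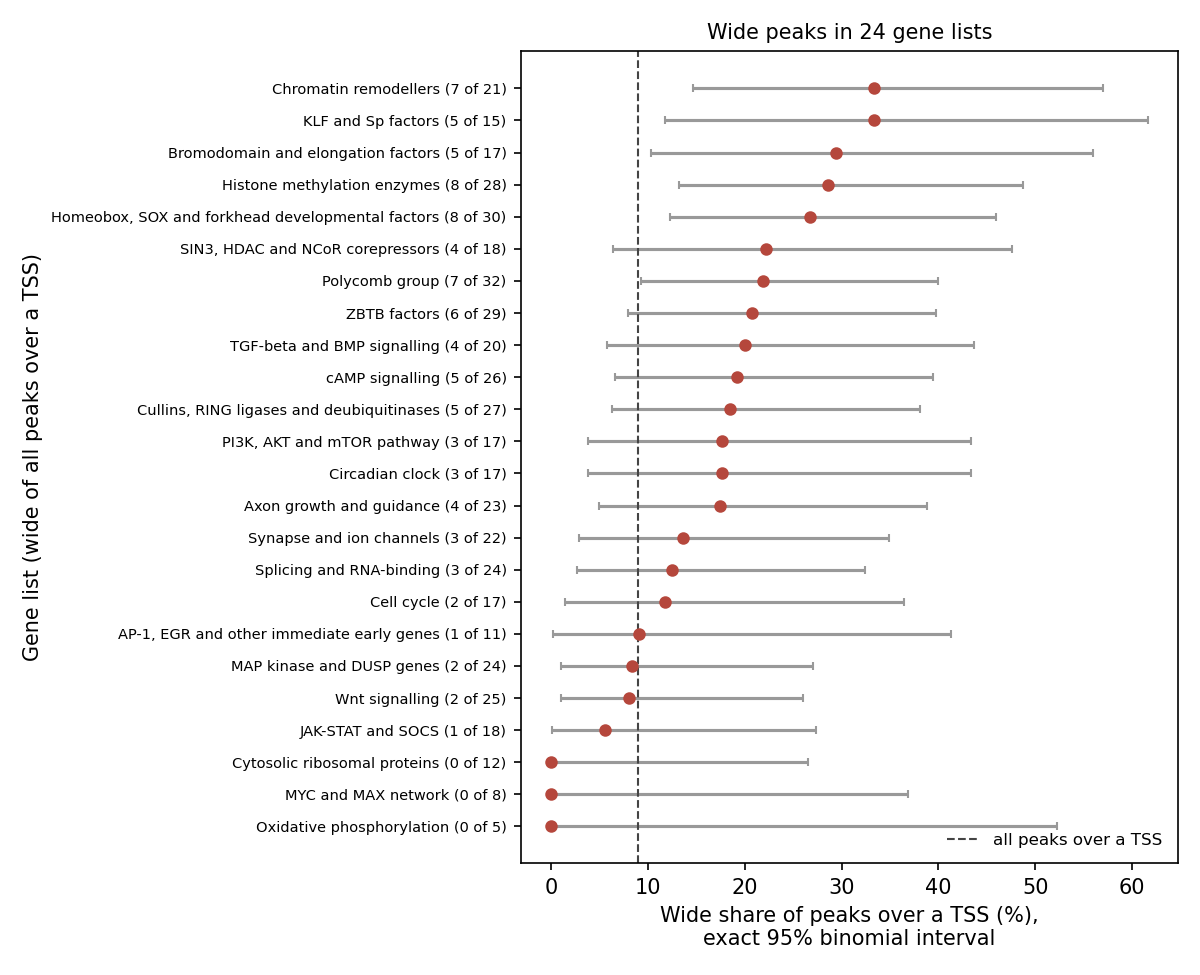
Points give the wide share of each list's peaks over a TSS in percent, with exact 95% binomial intervals as bars and the counts beside each list name. The dashed line marks 9.01%, and the lists of chromatin remodellers and KLF and Sp factors are highest at 33.3%.

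Counts of words in the deposited gene names, chosen after the values were seen, are given as a description beside the 9.01% of all peaks over a TSS. Names with "lysine (K)" had 5 wide peaks of 14 (35.7%, exact interval 12.8 to 64.9). These were Kdm2a, Kmt2c, Kdm7a, Kdm5b and Kdm2b, which the histone methylation and Polycomb lists above already count. Names with "transcription factor" had 16 wide peaks of 84 (19.0%), "homeobox" 14 of 77 (18.2%) and "RNA binding" 9 of 41 (22.0%). Names with "ring finger" had 10 of 65 (15.4%), "zinc finger" 25 of 224 (11.2%), "receptor" 33 of 338 (9.76%) and "kinase" 25 of 321 (7.79%). "Phosphatase" had 9 of 138 (6.52%), "transmembrane" 7 of 131 (5.34%), "solute carrier" 3 of 119 (2.52%), "mitochondrial" 0 of 63 (exact upper limit 5.69%) and "ribosomal protein" 0 of 24 (upper limit 14.2%).

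Wide peaks were spread unevenly over gene length. Genes with a wide peak had a median length of 55380 bp (exact 95% interval 47089 to 63902) and genes with another peak over the TSS 34310 bp (32680 to 35851). The relation was not a steady one. Peaks over a TSS were split by gene length into 10 groups of like size. The wide share was 11.5% in the shortest group, 4.01% in the third group (median length 14.4 kb) and 13.7%, 12.9% and 12.0% in the 3 longest groups. With protein-coding genes alone, the shortest group had 10.6%, the third 4.33% and the 3 longest 13.5%, 13.1% and 11.9%.

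**Figure D5:**
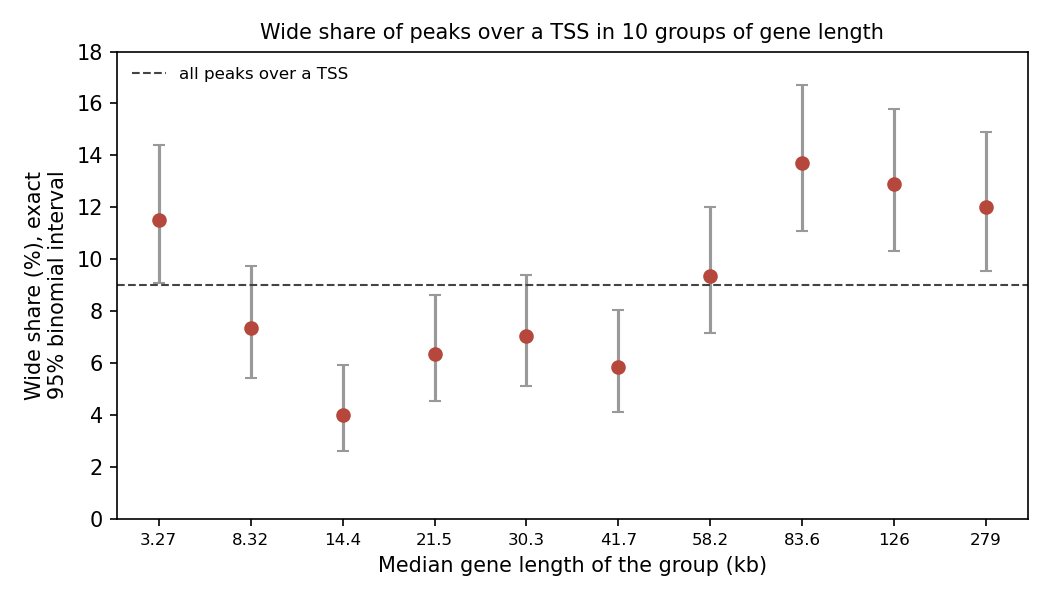
Points give the wide share of peaks over a TSS in 10 groups of gene length, labelled by the median length in kb, with exact 95% binomial intervals. The share is 11.5% for the shortest genes, lowest at 4.01% and between 12.0% and 13.7% for the 3 longest groups.

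The shortest group held 69 wide peaks. Examples, chosen after their values were seen, were Cebpb, a bZIP factor (2000 bp, fold 39.0), Mafa, a beta-cell bZIP factor (2300 bp, 24.5), and Pim3, a kinase (2200 bp, 20.4). Proneural and neural factors were among them, with folds of 18.9 at Neurog2 (1400 bp), 21.3 at Insm1 (1900 bp) and 16.5 at Hes5 (1300 bp). The median fold of these 69 was 26.2, and the medians of the wide peaks in the other 9 length groups lay between 30.2 and 36.3. A wide peak was longer than its gene in 8 cases (1.48%), against 37 of the other peaks over a TSS (0.680%). The selection was by width, and a longer peak exceeds the length of more genes by geometry.

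The assigned gene was protein-coding for 511 wide peaks (94.8%), a long non-coding RNA for 23 and a microRNA for 5. The microRNA genes included Mir124a-3, one of the copies of the neuronal miR-124 (1800 bp, fold 20.2), and Mirlet7i (1400 bp, 32.6). In 14 of the 28 non-coding cases the peak also covered the start of a protein-coding gene, so the single assigned name is not the only candidate. Cahm shared its peak with Qk, an RNA-binding protein (2100 bp, 28.8), and Foxd2os with the forkhead gene Foxd2 (1900 bp, 26.0). A pair of genes carried 2 wide peaks each. Grb10, an adaptor of insulin and growth factor receptors, had folds of 30.1 and 16.3 over 1500 and 1400 bp, and Camta1, a calmodulin-binding transcription activator, 25.1 and 38.0 over 1500 and 1300 bp.

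Another gene start lay under 81 wide peaks (15.0%, exact interval 12.1 to 18.3) and under 562 other peaks over a TSS (10.3%, 9.53 to 11.2). On the opposite strand these were 79 (14.7%) and 527 (9.68%). A wider interval covers more sequence, and the direction turned when 300 bp on each side of the middle of the peak were searched for all peaks, a window that reaches past the edges of the narrowest ones. In that window 38 wide peaks (7.05%, 5.04 to 9.55) and 515 others (9.46%, 8.69 to 10.3) had another start. The window was centred on the peak and not on the TSS. Median parts upstream and downstream of the TSS were 522 and 950 bp in wide peaks, and 267 and 433 bp in others. The window therefore tended to reach less far upstream of the TSS in wide peaks, and its shares do not compare the same stretch. The peak assigned to Agrp, a hypothalamic neuropeptide gene (1800 bp, fold 32.3), also covered the start of Ctcf, the architectural chromatin protein, and of 1 gene model. The peak assigned to Zbtb25 covered the divergent start of Zbtb1, and that at Kmt2c the start of a gene model on the opposite strand. Strand was known for 87.0% of protein-coding genes and 59.5% of all genes, so starts of non-coding genes are undercounted.

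Wide peaks were about as often close to another peak as the rest. A further peak lay within 1 kb of 35 wide peaks (6.49%) and of 347 other peaks over a TSS (6.37%), and within 5 kb of 63 (11.7%) and 590 (10.8%).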

How the data were processed

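The samples were 4 KLF13 ChSP and 4 input libraries of HT22 cells, and the labels do not say whether they came from separate cultures. Per the submitters' processing notes, the build was GRCm38, and BWA 0.7.17-r1188, ChIPseeker (1.16.1), FastQC (0.11.3) and HOMER (4.9.1) are also listed, with no roles stated. The deposited list carries the name of the peak caller PePr, for which the sources used here give no version or settings. Each peak has a fold (ChSP divided by input, a linear ratio), a p-value (raw and adjusted), all computed by the authors over the 8 libraries together with a scaling that is not stated. A deposited score, proportional to the fold, was left aside. Width, distance to the TSS and the assigned gene are the authors' annotation, per the file headers. Peak edges come in steps of 100 bp in the deposited list. Coordinates are 1-based, and the TSS was taken from the annotated gene ends and strand.

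Wide peaks had a distance of 0 and a width of at least 1300 bp. The members and the gene lists were chosen with earlier results of these data known. No test was run, since width, fold and p come from the same calls and there is 1 value per peak. Shares carry exact Clopper-Pearson 95% intervals and medians exact order-statistic intervals, which cover counting error between peaks only. Gene length, gene type and other gene starts come from a RefSeq gene table on GRCm38.p6, which all 539 wide peaks matched. Promoter comparisons between wide and other peaks were planned and not made, because fewer than 80% of the genes matched the promoter table. A sequence was printed only where the RefSeq start lay under the peak. This passed over Slc12a7, whose RefSeq start in the table lies elsewhere, in favour of Taf9b.

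Named genes were the 10 widest, the 10 highest and 5 lowest in fold, up to 3 widest of each list, Klf13, the 3 peaks over most gene starts, and 3 high and 3 narrow peaks outside the wide group, skipping unnamed models. The remaining list members, the genes on X, the short, non-coding and doubly covered genes, and Hmgb1 were named after their values were seen. Alternatives were widths of 1200 and 1500 bp, peaks with p below the median of the list, 1 peak per gene, the RefSeq start, a common window around the middle of the peak, coding genes only (for the assigned gene and the other start) and bases before the start only. The intervals and counts were tested on simulated data. Tools were scipy 1.17.1, matplotlib 3.10.9, numpy 2.4.6 and pandas 2.3.3 under Python 3.11.15.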

Additional observations from a re-analysis of the deposited data

How the results depend on the processing

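The wide share of peaks over a TSS was 13.2% with a threshold of 1200 bp, 4.50% with 1500 bp and 12.8% among peaks with p below the list median, as those settings take more, fewer or other peaks. The median fold of the other peaks was 23.0, 23.8 and 28.1 in the same order. With the RefSeq start in place of the annotated one, the median upstream share was 29.0% in wide and 31.9% in other peaks, and the cause was not tested. Another gene start lay under 7.05% of wide and 9.46% of other peaks in the common window, which turned the direction. That window was centred on the peak, so it lay differently around the TSS in wide and other peaks. Of peaks assigned to a protein-coding gene, 6.07% of wide and 4.10% of other peaks covered the start of another protein-coding gene. CACCC occurred in 65.2% of the matched windows when only the 250 bases before the start were searched. The immediate early list had a wide share of 0% with 1500 bp, and the TGF-beta and BMP list 45.0% with 1200 bp, the latter from more peaks of 1200 bp in a list of 20. The number of lists with a wide share above that of all peaks over a TSS was 18 of 24 as reported, 20 with 1200 bp and 18 with 1500 bp or with p below the median. Leaving out Klf13 and the stretch of X, an alternative chosen after seeing the data, moved none of the 27 values recomputed beyond their intervals. The wide share was then 28.6% in the KLF and Sp list (33.3% as reported) and 19.4% in the Polycomb list (21.9% as reported). Both are among the lists whose interval lay above the share of all peaks over a TSS as reported. Their intervals were not recomputed in this setting, so neither list can be counted as above it without Klf13 and the stretch of X. No paired analysis was possible because each peak has a single value over the 8 libraries, and for the same reason no replicate could be left out. Read depth is unknown.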

Other observations

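A further 76 peaks of 1300 bp or more did not lie over an annotated TSS, and many of them were beside one. Gnas, the imprinted G-protein gene, had 2800 bp at a fold of 31.1, starting 193 bp inside the annotated start. Sp9, a developmental Sp factor, had 2200 bp at 19.0, and the miR-17 gene Mir17 2100 bp at 44.3, 1171 bp upstream of its start. The widest peak of the list, 6300 bp at a fold of 5.19, was assigned to Esp38 from 101420 bp away, and the authors' p there was 5.08e-55.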
